A study of Mus musculus with 12 samples.

Results

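The interleukin-6 and oncostatin M axis comprised 8 genes here, of 55401 gene identifiers in the count tables: the ligands Il6, Osm and Lif, the receptor chains Il6ra, Il6st and Osmr, the transducer Stat3 and its feedback inhibitor Socs3. They were taken by symbol from both deposited tables, and all 8 were found. RNA was read in CD45+/CD11b+/Ly6G- cells, that is, leukocytes of the myeloid lineage depleted of neutrophils, sorted from mouse hind paws 4 h after injection. The 4 groups were FABP5Flox/LysM-Cre mice given 1% carrageenan, the same genotype given saline, FABP5Flox mice given 1% carrageenan and FABP5Flox mice given saline, with 3 libraries each. FABP5Flox/LysM-Cre mice, called cKO below, lack Fabp5 in cells that have expressed the lysozyme M promoter, which drives Cre in macrophages, monocytes and neutrophils and not in every cell of these types. FABP5Flox mice, called Flox below, carry the floxed allele without Cre, and no group with Cre alone was analysed here, so that Cre and the loss of Fabp5 cannot be told apart. All animals were adult, and every library pooled the cells of 3 or 4 of them (12 mice per cKO group and 10 per Flox group), so that n counts pools of mice and not single mice.

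Interleukin-6 signals through a receptor made of its own binding chain, Il6ra, and a shared signalling chain, Il6st, and the same shared chain pairs with Osmr for oncostatin M and with Lifr for leukemia inhibitory factor. Janus kinases bound to these chains phosphorylate STAT3, which enters the nucleus and induces, among others, Socs3, whose protein binds the shared chain and shuts signalling down. Carrageenan, a seaweed polysaccharide, causes an acute inflammation of the paw, and interleukin-6 family cytokines made there are known to act on sensory neurons, fibroblasts and endothelium as well as on leukocytes.

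Il6 and Socs3 are shown with their promoter windows because both were called with carrageenan under every alternative and because these windows hold letters of known motifs. The windows cover 250 bases before and 50 after the gene start in RefSeq (GRCm38.p6), are written 5′ to 3′ on the gene's strand, and have motif matches in capitals. The Il6 window is chr5:30012864-30013163 on the plus strand and the Socs3 window is chr11:117969317-117969616 on the minus strand.
Il6: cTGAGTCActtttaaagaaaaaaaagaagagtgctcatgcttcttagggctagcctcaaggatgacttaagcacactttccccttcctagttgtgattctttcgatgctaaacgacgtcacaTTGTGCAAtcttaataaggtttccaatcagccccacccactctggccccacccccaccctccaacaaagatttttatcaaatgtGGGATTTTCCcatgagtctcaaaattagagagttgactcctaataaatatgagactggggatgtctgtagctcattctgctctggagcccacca
Socs3: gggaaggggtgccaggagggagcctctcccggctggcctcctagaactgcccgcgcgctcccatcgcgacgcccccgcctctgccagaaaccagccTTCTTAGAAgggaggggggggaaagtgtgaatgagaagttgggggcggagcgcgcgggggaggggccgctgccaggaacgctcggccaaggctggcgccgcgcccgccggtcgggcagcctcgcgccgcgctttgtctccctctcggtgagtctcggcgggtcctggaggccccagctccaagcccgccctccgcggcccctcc
The letters searched, on both strands, were GGG, any 2 bases and TTTCC for NF-kB, TTGCNNAA for C/EBP, TGANTCA for AP-1 and TTCNNNGAA for STAT factors, and no matches overlapped. The Il6 window held GGGATTTTCC starting 44 bases before the gene start, TTGTGCAA (the C/EBP letters on the opposite strand) at 128 bases and TGAGTCA at 249 bases. In the Socs3 window the STAT letters occurred as TTCTTAGAA, 154 bases before the RefSeq start. That start lies inside the wider GENCODE span of Socs3. Of 32851 promoter windows of the same length, 1.63% held the NF-kB letters, 10.8% those of C/EBP, 7.81% those of AP-1 and 8.3% those of STAT factors. Among the other members, Lif and Osmr each held an AP-1 match (228 bases before and 3 bases after the start), and the Il6ra, Il6st and Stat3 windows held none of the 4. Osm has no window in the RefSeq table. These matches describe the letters and not binding.

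The libraries held between 111925 reads on genes (Flox saline pool 1) and 2987015 (cKO saline pool 2), and every cKO library but 1 was deeper than every Flox library, so that depth and genotype cannot be fully told apart. A single read was worth 5.46 normalized counts at the lowest depth and 0.268 at the highest. Levels below are normalized counts on a scale common to all 12 libraries unless stated otherwise. The defining myeloid genes (Ptprc, Itgam, Csf1r, Cd68, Adgre1, Tyrobp, Fcer1g and Lyz2) were read in all 4 groups, whereas Ngp and Camp of neutrophil granules were at 0 in every library and lymphocyte genes summed to at most 3.02. Genes of cells outside the sorted type were read too: keratinocyte markers summed to between 248 and 1435 over the 12 libraries and fibroblast markers to between 66.2 and 1441. In cKO carrageenan pool 3, the shallowest cKO library, the neutrophil-type gene sum was 700, against 142 and 201 in pools 1 and 2 of its group. The Flox carrageenan pools held 424, 395 and 726, a range that includes cKO pool 3. Fabp5 itself was read at 6.01, 11.1 and 22.3 normalized counts, as deposited, in cKO carrageenan libraries, against 43.1, 94.9 and 32.8 in Flox carrageenan libraries, which did not overlap. After saline Fabp5 stood at 6.36, 4.29 and 11.8 in cKO libraries and at 5.46, 36.5 and 23.9 in Flox libraries, which overlapped, the lowest Flox library resting on 1 read. Neither Fabp5 difference passed the test (limma adjusted p = 0.497 after carrageenan and 0.683 after saline). Of 14 alternatives after carrageenan, 1 called Fabp5, the limma fit without cKO carrageenan pool 3 (adjusted p = 0.0346). The same fit called 420 genes, against 0 in the main fit. The libraries read 3′ ends, and a 3′ end outside the floxed part would not show the deletion.

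Carrageenan raised Il6, Osm and Socs3 transcripts in both genotypes, and no member was called lower. Stat3 was also called higher in cKO cells, a call kept in 10 of 23 alternatives. Its log2 fold change was 0.95 in cKO and 0.74 in Flox, and the difference between genotypes did not pass the test. The comparison asks how the axis responds to the inflammatory stimulus. In limma over all 10240 genes tested, 4 of 8 members were called higher in cKO cells (background 2.1% of genes called higher and 2.65% called in either direction) and 3 of 8 in Flox cells (background 4.42% and 7.17%). The members were chosen with earlier results of these data known, so an excess over these shares is not a test. The median log2 fold change of the 8 members, Osmr included, was 1.08 in cKO and 1.57 in Flox cells, against -0.07 and 0.10 over all genes tested. Without Osmr, left out for the reason at the end of this paragraph, the middle values were 0.95 in cKO (Stat3) and 1.47 in Flox (Socs3). For 4 members in each genotype (Il6, Osm, Stat3 and Socs3), every carrageenan library lay above every saline library, which held for 12.6% of genes in cKO and 13% in Flox. Osmr also separated but is not counted, since it passed the filter on low values mainly through carrageenan libraries.

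**Figure D1:**
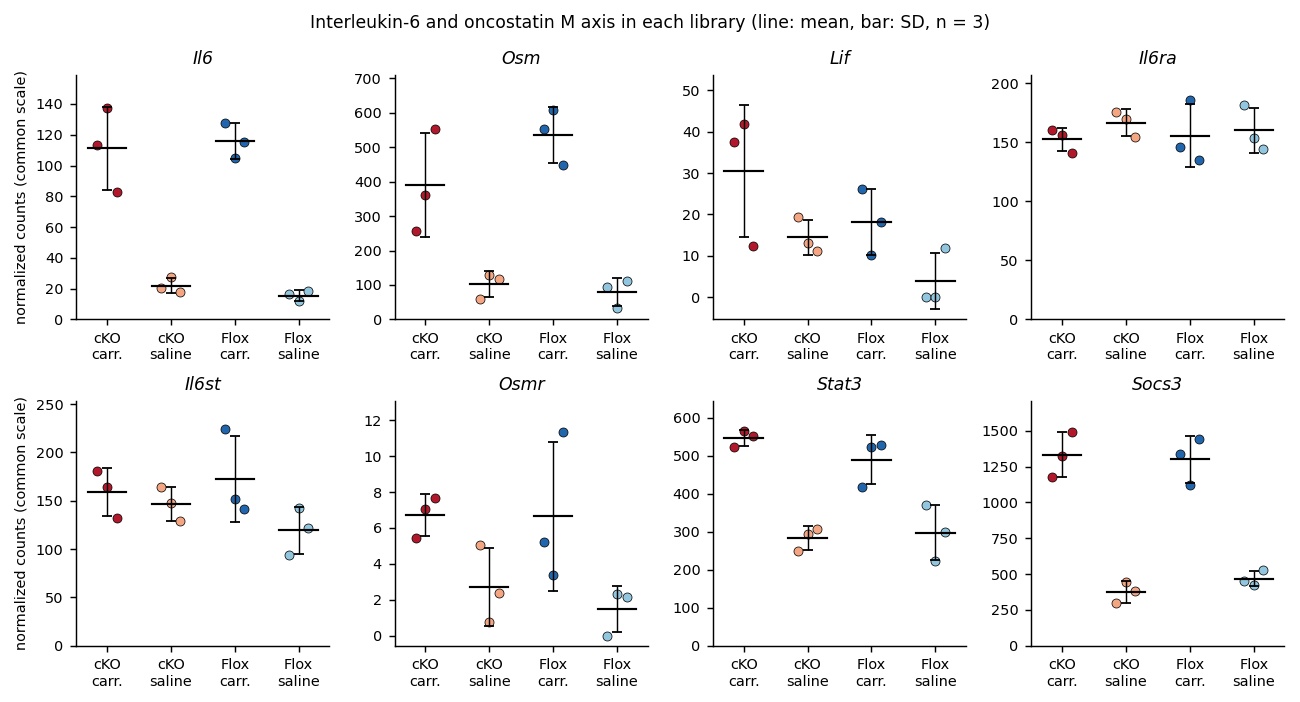
Normalized counts (common scale, y axis) of the 8 members in each of the 12 libraries by genotype and treatment; points are libraries of pooled mice, lines are means and bars are SD (n = 3). Il6, Osm, Stat3 and Socs3 show carrageenan libraries above all saline libraries in both genotypes, while Il6ra does not separate by group.

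Il6, which encodes the secreted cytokine, lies on chromosome 5 (chr5:30013114-30019981, plus strand, GRCm38) and carries the NF-kB, C/EBP and AP-1 letters shown above. In cKO mice it stood at 113, 137 and 82.8 normalized counts after carrageenan, against 20.6, 27.3 and 17.6 after saline. In Flox mice it stood at 128, 105 and 116 after carrageenan, against 16.5, 11.7 and 18.2 after saline. The lowest carrageenan library, cKO pool 3, was thus still above the highest saline library, cKO pool 2. Il6 rose 4.88-fold in cKO cells (log2 2.29 ± 0.32 SE, limma adjusted p = 0.00179) and 7.19-fold in Flox cells (log2 2.85 ± 0.32 SE, adjusted p = 0.000362). By group mean the order was Flox carrageenan (116 ± 11.4, SD, n = 3), cKO carrageenan (111 ± 27.3), cKO saline (21.9 ± 4.97) and Flox saline (15.5 ± 3.41). Neighbours of the same treatment overlapped in that order, and those of different treatments did not. The Flox saline level rests on 3, 5 and 17 reads, which limits how precisely the Flox fold is known (6.51-fold in summed reads per total reads, 95% counting interval 4.3 to 10.3).

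Osm, a cytokine made mainly by myeloid cells and released early in inflammation, showed a response of similar size. It lies on chromosome 11 (chr11:4236420-4241026, plus strand), with Lif 16530 bases downstream on the same strand. Osm reached 258, 360 and 554 normalized counts in cKO carrageenan libraries, against 58.8, 129 and 118 in cKO saline libraries. The Flox carrageenan libraries held 552, 608 and 448, against 93.7, 32.6 and 113 in Flox saline libraries. No carrageenan library overlapped a saline library, and the cKO carrageenan libraries spread more widely than the Flox ones, pool 3 alone reaching the Flox levels. Osm rose 3.84-fold in cKO cells (log2 1.94 ± 0.43 SE, limma adjusted p = 0.0265) and 7.48-fold in Flox cells (log2 2.90 ± 0.43 SE, adjusted p = 0.00159). The cKO call was lost without cKO saline pool 1 (adjusted p = 0.162), cKO saline pool 3 (0.0646), cKO carrageenan pool 2 (0.0848) or cKO carrageenan pool 3 (0.143), whereas the Flox call held without any single library.

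Lif, the leukemia inhibitory factor gene (chr11:4257557-4272514, plus strand), was read sparsely. After carrageenan it had 110, 142 and 8 reads in cKO libraries, against 57, 52 and 19 after saline. Flox carrageenan libraries held 10, 3 and 24 Lif reads, against 0, 0 and 11 in Flox saline libraries. On the common scale these were 37.4, 41.8 and 12.3 against 19.3, 13.2 and 11.2 in cKO, and 26, 10.1 and 18.1 against 0, 0 and 11.8 in Flox. The groups overlapped in both genotypes: cKO carrageenan pool 3 lay below the 2 highest cKO saline libraries, and Flox saline pool 3 lay above Flox carrageenan pool 2. Lif did not pass the test in cKO (log2 fold change 0.88 ± 0.89 SE, limma adjusted p = 0.947) or in Flox (2.94 ± 0.89, adjusted p = 0.0602; range 0.00291 to 0.286 over the alternatives). The Flox value depends on how the 2 libraries at 0 reads are scaled: edgeR gave 1.51, and summed reads per total reads gave 2.35-fold (95% counting interval 1.17 to 5.1). Only leaving out Flox saline pool 3, the 1 saline library with Lif reads, brought Lif past the threshold, with a log2 fold change of 4.16 (adjusted p = 0.00291).

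**Figure D2:**
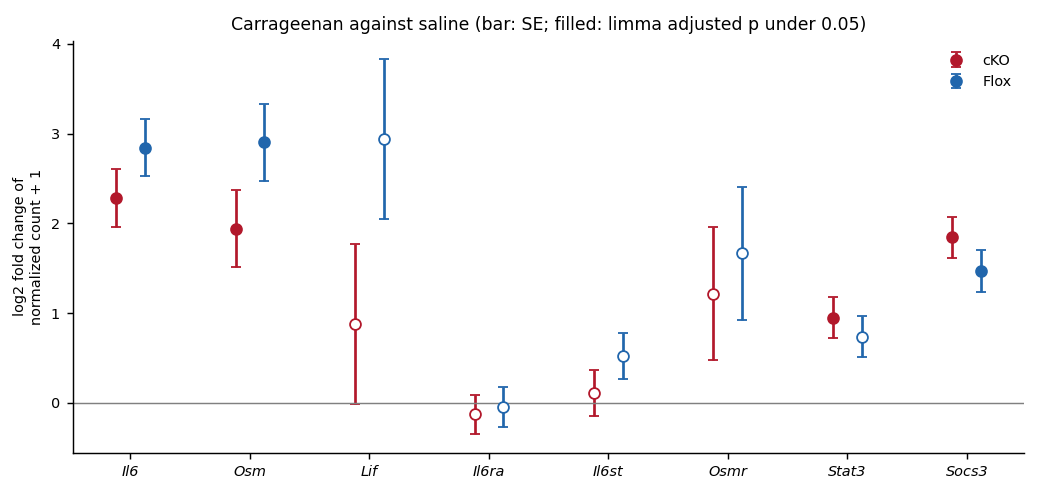
Log2 fold change of normalized count + 1 (y axis), carrageenan against saline, for each member in cKO (red) and Flox (blue) cells; bars are SE from limma over 12 libraries, and filled points passed an adjusted p under 0.05. Il6, Osm and Socs3 passed in both genotypes, Stat3 in cKO (0.95) and not in Flox (0.74), and Il6ra and Il6st lay between -0.13 and 0.52.

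The receptor chains did not pass the test. Il6ra (chr3:89864059-89913196, minus strand), the ligand-binding chain that also exists as a shed soluble form, had 160, 156 and 141 normalized counts in cKO carrageenan libraries, against 176, 170 and 155 in cKO saline libraries. In Flox libraries it had 146, 186 and 135 after carrageenan, against 182, 154 and 145 after saline. All 12 values thus lay between 135 and 186, and the groups overlapped. The log2 fold change was -0.13 in cKO (95% confidence interval -0.60 to 0.34, limma adjusted p = 0.997) and -0.05 in Flox (-0.52 to 0.42, adjusted p = 0.917).

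Il6st, the shared signalling chain (chr13:112464070-112510086, plus strand), stood at 181, 164 and 132 normalized counts after carrageenan in cKO mice, against 164, 148 and 129 after saline. The Flox carrageenan libraries had 224, 152 and 142, against 93.7, 142 and 122 in Flox saline libraries. The highest value was Flox carrageenan pool 1 and the lowest was the shallow Flox saline pool 1, and both pairs of groups overlapped. The log2 fold change was 0.11 in cKO (95% confidence interval -0.44 to 0.66, limma adjusted p = 0.997) and 0.52 in Flox (-0.03 to 1.07, adjusted p = 0.244).

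Osmr, the oncostatin M receptor chain (chr15:6813577-6874969, minus strand), was close to the detection limit. It had 16, 24 and 5 reads in cKO carrageenan libraries, against 15, 3 and 4 in cKO saline libraries, and 2, 1 and 15 in Flox carrageenan libraries, against 0, 1 and 2 in Flox saline libraries. On the common scale the carrageenan libraries lay between 3.38 and 11.3 and the saline libraries between 0 and 5.07, and the groups did not overlap within a genotype. No support is taken from this separation, for the reason given above. Its log2 fold change was 1.22 ± 0.74 (SE, limma adjusted p = 0.698) in cKO and 1.67 ± 0.74 (adjusted p = 0.193) in Flox. In summed reads per total reads Osmr was 2.29-fold higher in cKO (95% counting interval 1.35 to 4.01) and 4.19-fold in Flox (1.22 to 22.2), intervals that cover counting error only. Fibroblasts are a main site of Osmr, and the summed fibroblast markers lay higher in carrageenan libraries (848 to 1315 in cKO and 912 to 1441 in Flox) than in saline libraries (313 to 719 in cKO and 66.2 to 643 in Flox), all 10 markers being read in every group, and their part in the result was not tested.

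Stat3, the transcription factor that the receptors activate (chr11:100885098-100939540, minus strand), had 522, 565 and 552 normalized counts in cKO carrageenan libraries, against 248, 295 and 307 in cKO saline libraries. In Flox libraries it had 417, 524 and 529 after carrageenan, against 369, 224 and 300 after saline. Groups did not overlap in either genotype, although Flox carrageenan pool 1 lay near the highest Flox saline library. Stat3 rose 1.93-fold in cKO (log2 0.95 ± 0.23 SE, limma adjusted p = 0.0407), a call lost with the replicate number as a block (adjusted p = 0.065), on the deposited scale (0.0753), on the TMM scale (0.0748) and without any single one of the Flox carrageenan, cKO saline or cKO carrageenan libraries (0.0529 to 0.219). In Flox the log2 fold change was 0.74 ± 0.23 SE (adjusted p = 0.0672; 0.0174 in DESeq2, which called 8.65% of all genes). The 3′ ends of Stat3 and of Stat5a on the opposite strand overlap by 72 bases, and the strand setting of the counting is not given in the sources used here, so reads there cannot be assigned with certainty.

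Socs3, the feedback inhibitor and a classical STAT3 target (chr11:117966079-117970047, minus strand), holds the STAT letters in the window shown above and was higher in every carrageenan library than in any saline library. It reached 1181, 1321 and 1494 normalized counts in cKO carrageenan libraries, against 295, 443 and 384 in cKO saline libraries. In Flox mice it reached 1338, 1122 and 1442 after carrageenan, against 452, 426 and 527 after saline. The lowest carrageenan library held more than 2-fold the highest saline library in either genotype. Socs3 rose 3.59-fold in cKO (log2 1.84 ± 0.23 SE, limma adjusted p = 0.00096) and 2.77-fold in Flox cells (log2 1.47 ± 0.23 SE, adjusted p = 0.00222). By group mean the order was cKO carrageenan (1332 ± 157, SD, n = 3), Flox carrageenan (1301 ± 164), Flox saline (469 ± 52.4) and cKO saline (374 ± 74.6). Il6 and Socs3 were called in both genotypes under all 23 alternatives tried for each.

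Marker genes of several cell types moved with carrageenan beside every value above. The sum of 12 resident macrophage genes, such as Cd163, Folr2 and Lyve1, was 3779 to 6669 in cKO carrageenan libraries, against 11940 to 14687 in cKO saline libraries, and 2967 to 3732 in Flox carrageenan libraries, against 9258 to 12396 in Flox saline libraries. The sum of 8 inflammatory monocyte genes, such as Ly6c2, Ccr2 and Plac8, was 2439 to 8226 in cKO carrageenan libraries, against 803 to 1453 in cKO saline libraries, and 5586 to 7470 in Flox carrageenan libraries, against 986 to 1795 in Flox saline libraries. Neutrophil-type genes summed to 142 to 700 in cKO carrageenan libraries, against 19.7 to 37 in cKO saline libraries, and to 395 to 726 in Flox carrageenan libraries, against 35 to 76.1 in Flox saline libraries, with Ly6g at 0 in both saline groups. Fibroblast marker sums, given with Osmr above, also lay higher in carrageenan than in saline libraries of both genotypes, while keratinocyte sums overlapped between treatments. The part of these shifts in the results was not tested. In RNA from bulk sorted cells, fewer cells of a type and less RNA per cell cannot be told apart.

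Of the other genes of the pathway, 47 of 56 were tested, and 13 were called higher and 1 lower in each genotype (33 not called), against 2.1% of all genes called higher and 0.547% called lower in cKO, and 4.42% and 2.74% in Flox. The counts of each list below stand beside these shares as a description. The lists were chosen with earlier results of these data known, so an excess over the shares is not a test. The median log2 fold change of the 47 tested genes was 0.91 in cKO and 0.75 in Flox cells. Lifr, the receptor chain that pairs with Il6st for Lif (chr15:7090614-7197489, plus strand), was the gene that fell. It stood at 42.1, 38.3 and 21.5 normalized counts in cKO carrageenan libraries, against 124, 103 and 122 in cKO saline libraries, and at 23.4, 23.7 and 27.2 in Flox carrageenan libraries, against 132, 110 and 118 in Flox saline libraries. Every carrageenan library lay below every saline library. Lifr fell by 1.80 ± 0.30 (SE) on the log2 scale in cKO (limma adjusted p = 0.00506) and by 2.23 ± 0.30 in Flox cells (adjusted p = 0.000908), and both calls held under all 23 alternatives. The summed resident macrophage genes given above moved in the same direction, and their part in the fall of Lifr was not tested.

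**Figure D3:**
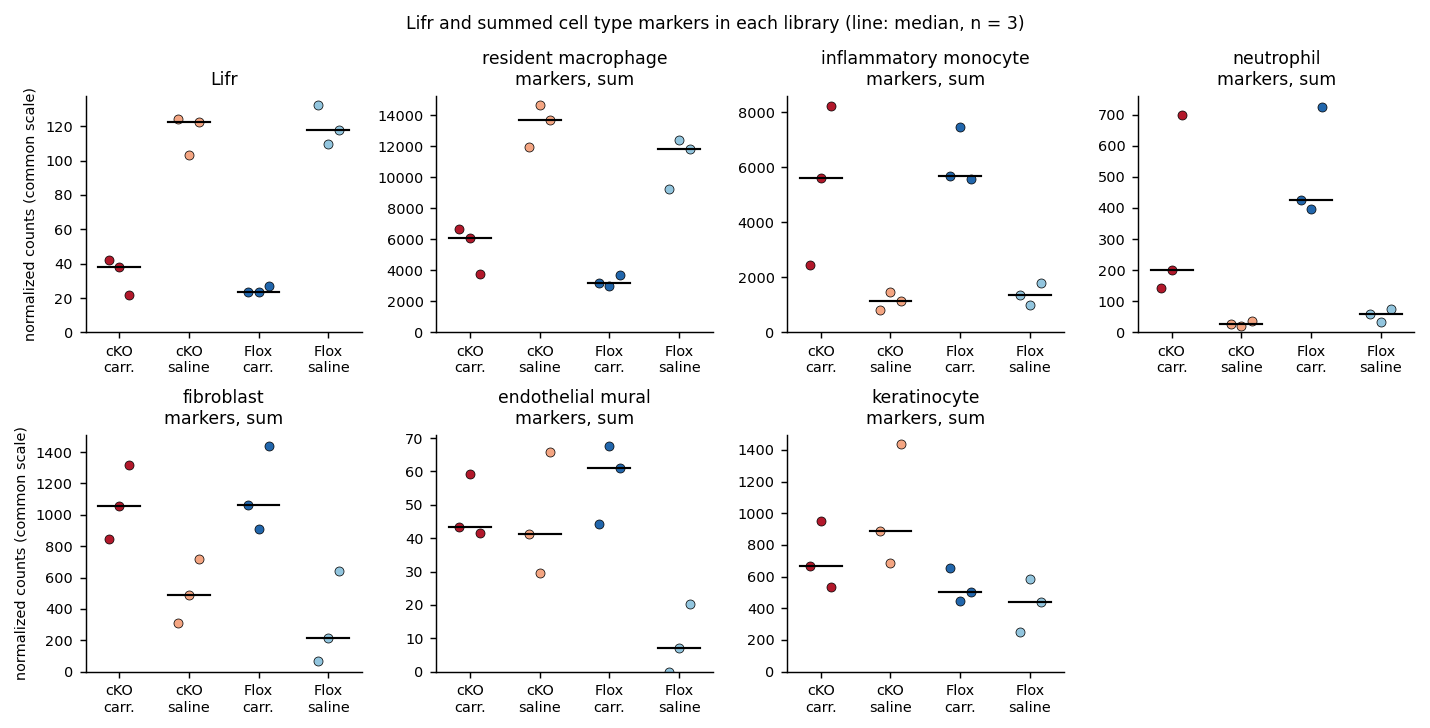
Lifr and the summed markers of 6 cell types (y axes, normalized counts on the common scale) in each of the 12 libraries; lines are group medians (n = 3). Lifr and resident macrophage markers lie lower, and inflammatory monocyte, neutrophil and fibroblast markers higher, in carrageenan than in saline libraries of both genotypes.

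Among the other ligand genes of the interleukin-6 family, 3 of 9 were tested (Il27, Ebi3 and Clcf1) and none was called, Cntf being at 0 reads in all libraries. Kinases and other STAT factors gave 2 of 6 genes higher in cKO and 3 of 6 in Flox. Jak2, a kinase bound to the shared chain, rose in both genotypes, by 1.89 ± 0.27 in cKO (log2 fold change ± SE, limma adjusted p = 0.00179) and 1.80 ± 0.27 in Flox (adjusted p = 0.00159). Its level was 208 ± 11.8 normalized counts in cKO carrageenan libraries and 55.8 ± 8.46 in cKO saline libraries (SD, n = 3 each). Stat5a rose in both (1.43 in cKO and 1.24 in Flox, adjusted p = 0.0433 and 0.0446), but the calls held in only 11 of 23 alternatives in cKO (adjusted p = 0.0578 with the replicate number as a block) and 6 of 23 in Flox (adjusted p = 0.0571 in edgeR and up to 0.116 without single libraries).

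Among inhibitors and receptor sheddases, 3 of 10 genes rose in cKO and 2 of 10 in Flox. Ptpn1, a tyrosine phosphatase that acts on Janus kinases, rose by 1.59 ± 0.25 in cKO (log2 fold change ± SE, limma adjusted p = 0.00363) and 1.29 ± 0.25 in Flox (adjusted p = 0.00715). Cish, a SOCS family member induced by STAT5, rose by 2.08 in cKO and 2.04 in Flox (adjusted p = 0.0221 and 0.0133). Socs1, the relative of Socs3 that blocks Janus kinases directly, rose in cKO (2.28, adjusted p = 0.0441; 0.054 with the replicate number as a block) and had a value of 1.80 in Flox (adjusted p = 0.0673). The sheddases Adam10 and Adam17, which cleave Il6ra from the surface, lay between -0.31 and 0.35 in both genotypes and were not called.

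Of 16 genes listed as targets of STAT3, 6 rose in cKO and 7 in Flox cells, and the list's median log2 fold change was 1.22 in cKO and 1.26 in Flox. Il1rn, the interleukin-1 receptor antagonist, moved furthest among the members and these genes: it averaged 2957 ± 930 normalized counts in cKO carrageenan libraries and 180 ± 70.5 in cKO saline libraries, and 3058 ± 510 in Flox carrageenan libraries and 150 ± 112 in Flox saline libraries (SD, n = 3 each). That was a log2 fold change of 4.06 in cKO (limma adjusted p = 0.00029) and 4.57 in Flox (adjusted p = 7.47e-05). Timp1, an inhibitor of matrix metalloproteinases, rose by 2.95 in cKO and 3.55 in Flox, and Hif1a, the oxygen-regulated transcription factor, by 1.98 and 1.70. Nfil3, a basic leucine zipper repressor, rose by 1.91 in cKO and 2.34 in Flox. Pim1, a kinase that promotes survival, rose by 1.56 in cKO (adjusted p = 0.0104) and had a value of 0.99 in Flox (adjusted p = 0.0528). Fos, another gene of the list, had values of -0.70 in cKO and -1.14 in Flox and was not called. These genes have other inducers too, and the list says nothing of which factor acted.

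Regulators of Il6 transcription and mRNA decay were called in 2 of 11 cases in each genotype. In cKO cells these were the NF-kB subunit Nfkb1 (log2 fold change 1.34, limma adjusted p = 0.0357; called in 13 of 23 alternatives) and the inhibitor of NF-kB signalling Tnfaip3 (1.37, adjusted p = 0.0278; called in 17 of 23). In Flox cells they were Zc3h12a, an RNase that degrades Il6 mRNA (1.26, adjusted p = 0.0239; called in 18 of 23), and Cebpb, a transcription factor that binds C/EBP letters (1.73, adjusted p = 0.0119; called in 22 of 23). Cebpb had 1.27 in cKO (adjusted p = 0.103) and Tnfaip3 0.15 in Flox (adjusted p = 0.802), and for none of the 4 did the difference between genotypes pass the test (adjusted p = 0.967 each). Zfp36 and Dusp1, which encode an mRNA decay factor and a MAP kinase phosphatase, had values between -0.38 and 0.32.

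**Figure D4:**
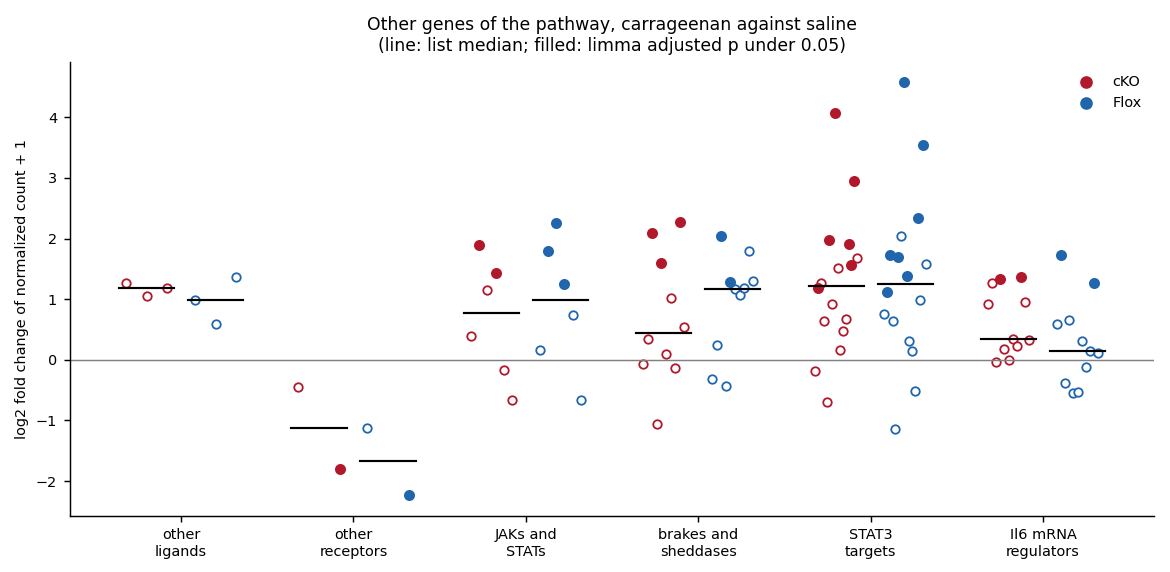
Log2 fold change of normalized count + 1 (y axis), carrageenan against saline, of the tested genes of 6 lists in cKO (red) and Flox (blue) cells; lines are list medians and filled points passed a limma adjusted p under 0.05. Lifr (-1.80 and -2.23) is the called gene below 0, and Il1rn (4.06 and 4.57) is the highest.

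Between cKO and Flox cells no member was called in either treatment. This comparison asks whether the axis differs between the genotypes, and it was made within each treatment on the deposited scale. It cannot separate the loss of Fabp5 from Cre, or genotype fully from depth, for the reasons given above. In limma no gene of 9151 was called after carrageenan (background 0%) and no gene of 9371 after saline (background 0%), while 897 and 508 genes had an unadjusted p under 0.05. At an adjusted p under 0.05, edgeR also called 0 genes in both. DESeq2 called 7 after carrageenan (0.291% of the 2409 genes to which it gave an adjusted p) and 22 after saline (0.235%), none of them a member. Lif and Osmr got no adjusted p from DESeq2 after carrageenan and could not be called there. Osm was the member with the largest negative difference after carrageenan, at 253, 350 and 537 normalized counts in cKO libraries, against 538, 589 and 432 in Flox libraries. The cKO values of pools 1 and 2 lay below all Flox values and pool 3 lay within them, and the log2 fold change was -0.51 ± 0.29 (SE; 95% confidence interval -1.15 to 0.14; adjusted p = 0.541). Without single libraries the Osm value ran from -0.79 to -0.25 (limma adjusted p = 0.0794 to 0.971), so it depends on which pools are kept. Il6 did not separate the genotypes after carrageenan, with 111, 133 and 80.3 in cKO libraries, against 124, 101 and 112 in Flox libraries (-0.08, interval -0.66 to 0.50, adjusted p = 0.918). Socs3 stood at 1160, 1281 and 1449 in cKO libraries, against 1304, 1087 and 1392 in Flox libraries, which overlapped (0.04, interval -0.45 to 0.53, adjusted p = 0.949).

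Stat3 was the 1 member whose genotype groups did not overlap after carrageenan, with 513, 548 and 535 normalized counts in cKO libraries, against 406, 507 and 511 in Flox libraries. The gap between 511 and 513 was narrow, such separations occurred in 15.1% of genes, and the difference did not pass the test (log2 fold change 0.17, 95% confidence interval -0.29 to 0.64, limma adjusted p = 0.758). Il6ra (-0.01), Il6st (-0.09), Osmr (0.15) and Lif (0.65) also did not pass. For Lif after carrageenan the interval was -0.55 to 1.84, and for Osmr -1.30 to 1.59, so sizeable differences were not excluded.

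After saline 7 members could be tested, Osmr falling below the filter on low values, and the cKO and Flox values of all 7 overlapped, while 15.6% of genes did not overlap. Lif differed most, with 20.2, 13.9 and 11.8 normalized counts in cKO libraries, against 0, 0 and 12.5 in Flox libraries. Its log2 fold change of 2.74 ± 1.11 (SE, limma adjusted p = 0.683) was 1.17 in edgeR, 1.34 in DESeq2 and 2.12 to 3.99 without single libraries. In the 2 Flox libraries without a Lif read, 3 reads would amount to 16.4 and 7.29 normalized counts. Il6 had a value of 0.50 (95% confidence interval -0.55 to 1.56), Osm of 0.48 (-0.67 to 1.63), Il6st of 0.34 (-0.26 to 0.94) and Socs3 of -0.31 (-0.89 to 0.27). Il6ra (0.09) and Stat3 (-0.02) lay closest to 0, with intervals of -0.40 to 0.59 and -0.60 to 0.56. In the authors' deposited table for each treatment, no member had an adjusted p under 0.05, and Osm after carrageenan had a log2 fold change of -0.41 (adjusted p = 0.606). The authors gave no adjusted p for Osmr in either treatment or for Lif after saline.

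**Figure D5:**
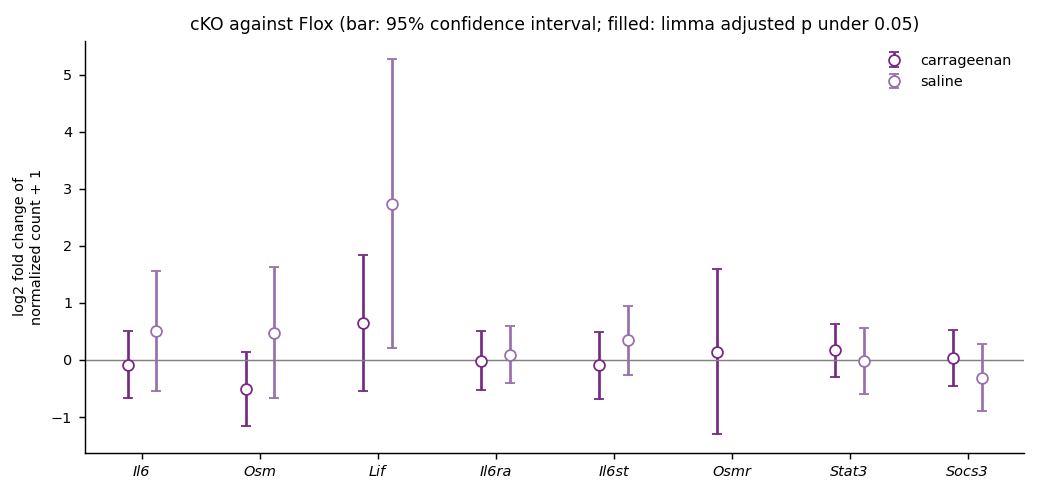
Log2 fold change of normalized count + 1 (y axis), cKO against Flox, of each member after carrageenan (dark) and saline (light); bars are 95% confidence intervals from limma on 6 libraries each, and open points did not pass an adjusted p under 0.05. No point is filled, and Lif after saline (2.74) has the widest interval, 0.22 to 5.27.

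The carrageenan effect itself was compared between genotypes as a difference of differences over 12 libraries. No gene of 10243 was called in limma (background 0%; 244 had an unadjusted p under 0.05), and edgeR and DESeq2 also called 0 (233 and 300 with an unadjusted p under 0.05). The effect in cKO minus that in Flox was -0.58 for Il6 (log2, 95% confidence interval -1.56 to 0.39), -0.99 for Osm (-2.29 to 0.32), -2.10 for Lif (-4.82 to 0.63), 0.19 for Stat3 (-0.50 to 0.87) and 0.35 for Socs3 (-0.36 to 1.06), each with an adjusted p of 0.967. Every interval included 0. The Lif value was -0.38 in edgeR, -0.52 in DESeq2 and -3.35 to -1.47 without single libraries. Il6ra (-0.11), Il6st (-0.44) and Osmr (-0.46) did not pass either. After carrageenan the summed resident macrophage genes were 3779 to 6669 in cKO libraries, against 2967 to 3732 in Flox libraries. Differences of effects were negative for all 5 tested endothelial and mural markers (median -2.18), 8 of 9 tested fibroblast markers (median -0.999) and all 4 keratinocyte markers (median -0.771). They were positive for 10 of 12 resident macrophage markers (median 0.575). None of these markers was called, and the median over all genes was -0.149. The 6 endothelial and mural markers summed to 41.4 to 59.2 in cKO carrageenan libraries, against 29.6 to 65.8 in cKO saline libraries, and to 44.3 to 67.6 in Flox carrageenan libraries, against 0 to 20.4 in Flox saline libraries. These Flox saline sums rest on 0 to 19 reads per library, close to the detection limit. The part of these markers in the members' differences was not tested.

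Across the 12 libraries the genes whose log2 levels were most like each abundant member were listed as a description, over 5486 genes with a mean of at least 20. For Il6 they were Gzmb (Pearson r = 0.971), Il17ra (0.970) and Oasl2 (0.968), and for Osm they were Adora2b (0.979), Ptgs2 (0.973) and Tpd52 (0.967). Socs3 was most like Acod1 (0.981), Gsr (0.978) and Nampt (0.972), and Stat3 most like Trim30a (0.962), Mx1 (0.962) and Ugcg (0.958). The closest genes to Il6ra reached 0.887 (Stx2) and those to Il6st 0.901 (Zfp236). All of these values share the same libraries, their depth and the split into carrageenan and saline.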

How the data were processed

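The deposited values are normalized counts, a signal that is never negative: reads per gene divided by 1 size factor per library by the authors, in a table per treatment, as their whole multiples show (100% of values were whole reads within 0.001). Libraries were made with a 3′ kit with unique molecular identifiers per the labels' protocols, and cutadapt, STAR and GRCm38 are named in the submitters' processing notes; of the counter and its strand setting nothing is stated there. The authors' deposited tables of comparisons hold log2 fold changes, their standard errors and test statistics (scores) and p-values, which were only quoted. Gene identifiers were matched to symbols (55141 of 55401), and 121 entries that name no gene, 0.170 to 2.23% of reads, were left out.

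Treatments were compared in 1 limma fit (version 3.58.1, R 4.3.3) of 12 libraries on log2(normalized count + 1), on a common scale from medians of ratios over 6501 genes, since the 2 tables had been normalized separately. cKO was set against Flox on the deposited values of 6 libraries per treatment, and the difference of effects was fitted over 12 libraries. Genes had at least 5 in at least 3 fitted libraries, p-values were adjusted by Benjamini-Hochberg over all genes tested, and calls were made under 0.05. Fold changes are on the log2(normalized count + 1) scale, which understates those of low genes but can overstate them where libraries are at 0 reads, as for Lif. edgeR 4.0.16 and DESeq2 1.42.0 on the recovered reads, other scales, pseudocounts and filters and each library left out were alternatives. Scripts were tested on counts simulated with 2-fold and 4-fold changes and the same spread setting for every gene. Between genotypes, limma called 4% of 2-fold changes in either treatment, and 65% (carrageenan) and 66% (saline) of 4-fold ones. For the difference of effects it called 0% and 5%, so the absence of calls there says little. False calls were 13.1% in the Flox treatment comparison and 0 to 1.43% in the others. Intervals on reads cover counting error only.

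The members and lists were chosen with earlier results of these data known. Named genes were all members and, per list and treatment comparison, all called genes or the 4 with the smallest p; Fos, Adam10, Adam17, Zfp36, Dusp1, Il27, Ebi3, Clcf1 and Cntf were added after their values were seen. The values of 1 gene so chosen are not reported here. Nothing states that pools of the 2 treatments came from the same mice, but in cKO same-numbered pools deviated together (r = 0.20, 0.336 and 0.434; 1 pair of unlike number reached 0.236), so a block by number is given beside a cKO result where it changes a call. Replicate libraries differed beyond sampling noise (chi-square per degree of freedom 2.71 to 16.3).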

Additional observations from a re-analysis of the deposited data

How the results depend on the processing

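Il6, Socs3 and Lifr were called in both treatment comparisons under all 23 alternatives, Osm in 17 in cKO and 23 in Flox, Stat3 in 10 in cKO and 3 in Flox, and Lif in 1 in Flox. No member was called between genotypes or for the difference of effects. Genes called in cKO, 271, became 143 with no filter, 733 in edgeR, 915 in DESeq2, 723 with only the 6 libraries of the groups and 84 to 521 when single libraries were left out. In Flox, 734 became 418 with no filter, 279 with only 6 libraries and 350 to 1080 without single libraries. Members called in cKO, 4, became 2 with no filter and 2 to 4 without single libraries. Genotype calls after carrageenan, 0, became 7 in DESeq2, which gave 6742 genes no adjusted p, and 0 to 420 without single libraries, the 420 without cKO carrageenan pool 3; after saline 0 became 22 in DESeq2. The causes were not tested.

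Signs turned round only for differences that were not called. For carrageenan against saline, the log2 fold change became -0.0054 for Il6st in cKO on the deposited scale, and for Il6ra in Flox it was -0.18 to 0.047 without single libraries and 0.047 without Flox saline pool 1 and cKO carrageenan pool 3 together, an alternative chosen after seeing the data. For cKO against Flox after carrageenan, Osmr became -0.33 in edgeR and -0.22 in DESeq2. Without single libraries it ran from -0.18 to 0.56, while Il6 ran from -0.24 to 0.12, Il6ra from -0.11 to 0.12, Il6st from -0.22 to 0.11 and Socs3 from -0.061 to 0.12. After saline, Stat3 ran from -0.20 to 0.12 and Osm from -0.054 to 0.84. For the difference of effects, Osmr ran from -0.92 to 0.12 and Il6ra from -0.20 to 0.028 without single libraries, and Osmr became 0.036 without both libraries named above.

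The deposited scale moved the median of all genes by -0.11 in cKO and -0.09 in Flox (log2), and calls were then 69.4% higher against 79.3% in cKO and 52.4% against 61.7% in Flox. Among named genes, cKO calls of Cish, Timp1 and Tnfaip3 held in 8 of 12 fits without a library, Pim1 in 11, Nfkb1 in 5 and Socs1 and Stat5a in 4; Flox calls of Zc3h12a held in 10, lost without Flox carrageenan pools 1 or 2, Cebpb and Cish in 11 and Stat5a in 2. In edgeR the Zc3h12a call was lost (adjusted p = 0.051). Without the 2 libraries named above, 3 of 8 members were called in cKO (Osm adjusted p = 0.0503) and 4 in Flox (Stat3 adjusted p = 0.0158). With the replicate number as a block, 264 genes and 3 members were called in cKO and 737 genes and 3 members in Flox (Stat5a adjusted p = 0.052), where the correlations of same-numbered pools were low (r = 0.00905, -0.0181 and 0.109) and the numbers were not taken as pairs; whether these pools came from the same mice is not stated. Depth limits Lif and Osmr, for which a Flox library of the lowest depth shows nothing below 5.46 normalized counts.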
